A study of Mus musculus with 8 samples.

Results

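Lipid droplets store triglyceride behind a coat of proteins, and the 10 genes described here encode coat proteins (Cidec, Cidea, Plin1, Plin4, Plin2 and Plin5), the lipases that empty the droplet (Lipe and Pnpla2), the lipase that unloads blood lipoproteins (Lpl) and a fatty acid transporter (Cd36). They were chosen by symbol, each matched 1 entry, and together they make up 10 of the 36432 gene IDs in the tables. The level was measured in poly(A) RNA from 8 whole mouse pancreases of a mixed strain, taken at 6 to 8 weeks of age. The 4 mice labelled Gata6-deleted had the genotype Ptf1a-Cre +/KI with Gata6 lox/lox, and the 4 control mice had Ptf1a-Cre +/KI alone. All 8 therefore carried a Cre gene knocked in at 1 allele of Ptf1a, a gene of pancreatic progenitors and acinar cells. Recombination is expected in cells of that lineage, and whether any fat cells, vessels or macrophages belong to it was not tested. The comparison sets young adult organs in which the GATA factor gene Gata6 was targeted in this lineage against organs with the driver alone.

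A large fat-cell droplet is sealed by perilipin 1, which holds back lipolysis until cAMP signalling releases it, and by the fusion protein CIDEC, while perilipin 4 coats small new droplets in fat cells. Perilipin 2 takes this place in most other cells, including macrophages and hepatocytes, and is degraded when it is not bound to lipid. Adipose triglyceride lipase (Pnpla2) takes the first fatty acid off a triglyceride, hormone-sensitive lipase (Lipe) the next, and lipoprotein lipase (Lpl) with CD36 brings fatty acids in from the blood. Fat cells lie between the lobules of a normal pancreas and are counted in with it when the whole organ is extracted.

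Values are rescaled FPKM, the deposited FPKM divided by 100000, a scale per transcript length on which genes can be compared but on which 1 unit is no fixed number of transcripts. Implied fragment totals, worked out from the deposited intervals, ran from 5326087 to 8958089 in the labelled libraries and from 6731360 to 7918025 in the controls. Genes without an estimate numbered 0 to 6 per labelled library and 6 to 8 per control, so the totals may not cover the same genes. Gata6 itself was higher and not lower in the labelled libraries, at 4.81, 5.12, 4.90 and 4.12 against 2.76, 2.12, 2.62 and 2.45 in controls 1 to 4 (log2 fold change 0.72, limma adjusted p = 0.0443). Over the fits that left out 1 library its adjusted p ran from 0.0321 to 0.183. One value per gene spans all exons, the floxed ones among them, so it cannot check the label, and the libraries are called labelled libraries 1 to 4. Labelled libraries 1 and 3 stood apart: 10 acinar marker genes, led by Cela2a, summed to 1158, 120000, 16530 and 145800 in the 4 labelled libraries in order, and to between 234500 and 323200 in the controls. The titles of labelled libraries 1, 3 and 4 and of control 1 start with BKD, and those libraries had Eif2s3y at 5.34 or more and Xist at 0.00932 or less. Labelled library 2 and controls 2 to 4 had Xist at 17.3 or more, so title prefix and sex cannot be told apart and both were unequal between the groups. In a whole organ, fewer cells of a type and less RNA per cell cannot be told apart.

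Upstream sequences are shown for Plin1 and Cidec, a pair of the fat-cell coats, and for Plin2, the coat whose pattern over libraries differed from theirs. Each is the 250 bases before an annotated start, 5′ to 3′, from RefSeq on GRCm38.p6, with motif matches in capitals. Cidec has a pair of annotated starts, and the downstream one is shown.
Plin1, chr7:79732777-79733026, minus strand: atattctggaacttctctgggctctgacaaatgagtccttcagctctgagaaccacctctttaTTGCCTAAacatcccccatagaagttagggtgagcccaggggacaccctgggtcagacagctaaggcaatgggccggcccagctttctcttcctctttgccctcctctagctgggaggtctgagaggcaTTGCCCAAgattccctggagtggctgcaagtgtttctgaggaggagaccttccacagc
Cidec, chr6:113434765-113435014, minus strand: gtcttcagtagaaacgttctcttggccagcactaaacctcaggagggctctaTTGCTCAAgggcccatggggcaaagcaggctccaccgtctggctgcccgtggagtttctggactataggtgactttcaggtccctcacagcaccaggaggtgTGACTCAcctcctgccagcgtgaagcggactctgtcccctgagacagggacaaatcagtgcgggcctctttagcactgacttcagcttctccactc
Plin2, chr4:86670060-86670309, minus strand: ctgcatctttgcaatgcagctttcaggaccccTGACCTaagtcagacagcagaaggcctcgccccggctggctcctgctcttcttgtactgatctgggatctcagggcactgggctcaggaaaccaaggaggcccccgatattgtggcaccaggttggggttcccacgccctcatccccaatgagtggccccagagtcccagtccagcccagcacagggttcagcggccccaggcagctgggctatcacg
The letters searched, on both strands, were the nuclear receptor half-site AGGTCA, the direct repeat DR1 (a pair of such half-sites with 1 base between them), the C/EBP motif TTGCNNAA and the AP-1 motif TGANTCA. Among 32851 mouse promoters of the same length the half-site was found in 14.0%, DR1 in 0.0335%, the C/EBP motif in 9.56% and the AP-1 motif in 6.75%. Plin1 held 2 C/EBP matches, beginning at -187 and -58 from the start, and Cidec held a C/EBP match beginning at -198 and an AP-1 match beginning at -96 from the start shown. Plin2 held a half-site beginning at -218. Of the windows not shown, that of the fat-cell coat Plin4, the other one of Cidec and those of Lipe and Pnpla2 held no match, Cd36 held a half-site, and Plin5 held a half-site and an AP-1 match. No motif searched was found in the windows of all 3 fat-cell coats with an entry. The repeat was found in none of the 11 windows of the 8 members with an entry, and no match overlapped another. These matches describe letters only.

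The fat-cell coats were higher in every labelled library than in every control. Cidec (mm9 chromosome 6, 113374628 to 113385754) was at 24.6, 22.6, 18.4 and 18.2 rescaled FPKM in labelled libraries 1 to 4, against 4.15, 2.33, 5.62 and 7.90 in controls 1 to 4. Its means were 20.9 ± 3.16 in the labelled libraries and 5.001 ± 2.36 in the controls (SD, n = 4 each), and it rose by a log2 fold change of 1.95 (SE 0.29, limma adjusted p = 0.0363). The lowest labelled library was 2.31 times the highest control. Plin4 (mm9 chromosome 17, 56240014 to 56249225) was at 13.0, 9.67, 7.93 and 6.41 in labelled libraries 1 to 4, against 1.10, 1.07, 2.43 and 3.06 in the controls, and it rose too (log2 1.84, SE 0.28, adjusted p = 0.0423). Plin1 (mm9 chromosome 7, 86866050 to 86877662) was at 13.5, 8.48, 7.004 and 9.50 in labelled libraries 1 to 4, against 0.966, 1.18, 2.77 and 3.36 in the controls. With the same log2 fold change of 1.84 (SE 0.30) its adjusted p of 0.0536 missed the threshold of 0.05. All 3 coats were highest in labelled library 1, and among the controls all 3 were highest in control 4.

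**Figure D1:**
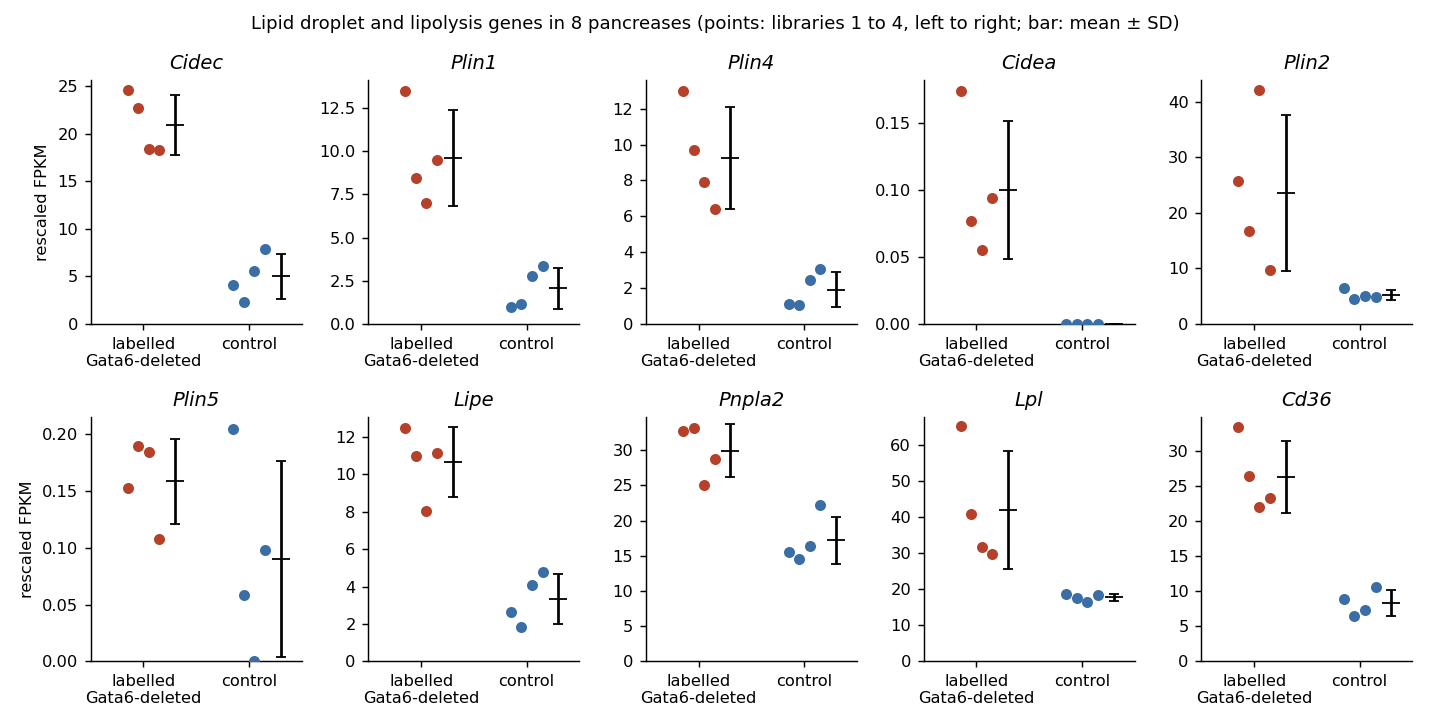
Rescaled FPKM (vertical axis, starting at 0) of the 10 genes in the 4 labelled Gata6-deleted libraries and the 4 controls, with points in library order and bars for the mean ± SD. The groups do not overlap in the 8 genes tested (10.9% of all genes tested were higher without overlap), Cidea rests on at most 7 implied fragments per library, and the 4 labelled Plin2 values spread from 9.77 to 42.1.

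Cidea (mm9 chromosome 18, 67503218 to 67527448), a CIDEC relative abundant in brown fat, was listed at 0 in all 4 controls and at 0.174, 0.0772, 0.0555 and 0.0938 in labelled libraries 1 to 4. Only 7, 1, 2 and 1 implied fragments stood behind these values, and no fold is given against a group listed at 0. It did not reach the minimum mean of 1 and was not tested across genes. The brown fat gene Ucp1 was listed at 0 in 7 libraries and at 0.0369 in labelled library 3, and Elovl3 was at 0 in all 8. The 7 brown fat markers, led by Cox8b, summed to 1.98 to 7.76 in the labelled libraries and to 0.741 to 2.67 in the controls.

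Of the coats of other cells, Plin2 had a log2 fold change near those of the fat-cell coats but did not pass, and its values were spread differently over the libraries. Plin2 (mm9 chromosome 4, 86294290 to 86315964) was at 25.8, 16.7, 42.1 and 9.77 rescaled FPKM in labelled libraries 1 to 4, against 6.46, 4.47, 5.06 and 4.87 in controls 1 to 4. The controls lay close together, and the highest labelled library was 4.30 times the lowest, against 1.35 times for Cidec. The means were 23.6 ± 13.9 in the labelled libraries and 5.22 ± 0.86 in the controls (SD, n = 4 each). The log2 fold change was 1.81 (SE 0.39, limma adjusted p = 0.0857). Counting error did not cover the order among the labelled libraries: the deposited intervals were 23.1 to 28.4, 12.8 to 20.6, 38.4 to 45.7 and 6.85 to 12.7 in labelled libraries 1 to 4. Across the groups, the interval of labelled library 4 overlapped those of control 1 (3.13 to 9.79) and control 3 (1.98 to 8.14), and no other pair overlapped. The log2 fold change was 1.48 without labelled library 3 (adjusted p = 0.187), 1.16 without labelled libraries 1 and 3 (adjusted p = 0.202) and 2.15 without labelled library 4, where it passed (adjusted p = 0.0321). The fit without labelled library 4 called 21.6% of all genes, against 0.413% with all libraries. All 8 tested members passed in it, so the pass is not particular to Plin2.

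Plin5 (mm9 chromosome 17, 56251024 to 56257019), the coat of oxidative tissues that ties droplets to mitochondria, was barely detected. It was at 0.152, 0.189, 0.184 and 0.108 in the labelled libraries and at 0.205, 0.0581, 0 and 0.0981 in the controls, with 0 to 10.9 implied fragments behind a value. The groups overlapped (exact two-sided permutation p = 0.229, n = 4 each), and it was not tested across genes. Plin4 and Plin5 are neighbours with 1798 bases between them.

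The make-up of the perilipin family differed between the libraries as well. Plin3, the soluble coat made by nearly all cells, was at 7.08, 8.28, 11.2 and 9.53 in the labelled libraries and at 10.2, 7.51, 6.50 and 6.65 in the controls (log2 0.20, SE 0.19, limma adjusted p = 0.453). It made up 11.9%, 19.1%, 16.3% and 27.0% of the summed perilipin FPKM in labelled libraries 1 to 4, against 53.9%, 52.5%, 38.8% and 36.9% in controls 1 to 4. Plin2 made up 43.3%, 38.6%, 61.6% and 27.7% of that sum in labelled libraries 1 to 4 and 34.1%, 31.3%, 30.2% and 27.0% in the controls. Plin1 made up 22.7%, 19.6%, 10.2% and 26.9% of it in the labelled libraries and 5.10%, 8.25%, 16.6% and 18.6% in the controls. Labelled library 3 thus had the highest share of Plin2, and its Plin1 share was the lowest labelled one and lay within the range of the controls. Shares within a library do not depend on how the libraries were scaled.

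**Figure D2:**
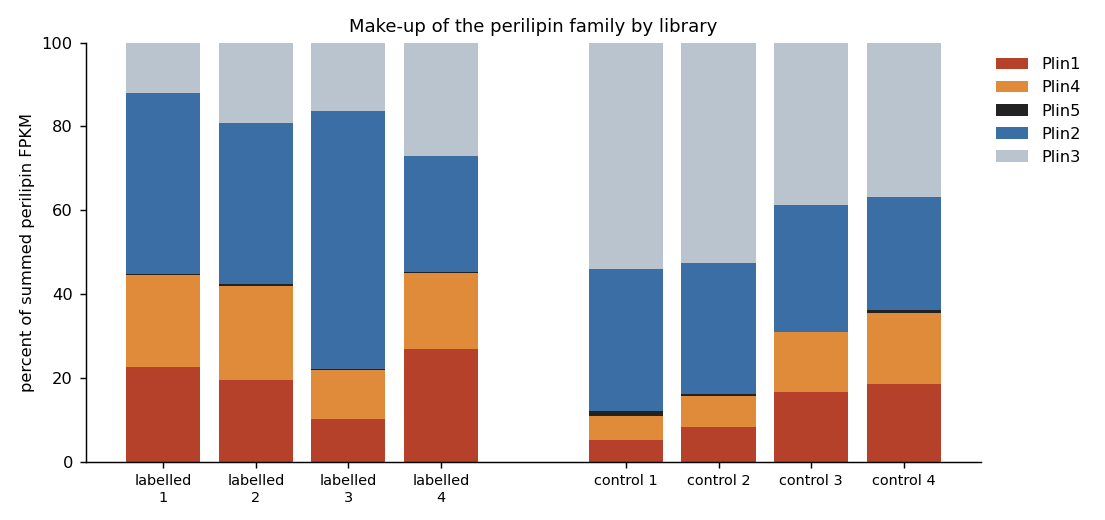
Percent of the summed FPKM of Plin1 to Plin5 (vertical axis) taken by each perilipin in the 4 labelled Gata6-deleted libraries and the 4 controls. Plin3 takes 36.9% to 53.9% in the controls, and Plin2 takes 61.6% in labelled library 3.

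Of the droplet lipases, Lipe (mm9 chromosome 7, 26164546 to 26183729) was at 12.5, 10.98, 8.03 and 11.1 rescaled FPKM in labelled libraries 1 to 4, against 2.65, 1.85, 4.07 and 4.76 in the controls. Its means were 10.6 ± 1.87 in the labelled libraries and 3.33 ± 1.32 in the controls (SD, n = 4 each), with a log2 fold change of 1.47 (SE 0.24) and an adjusted p of 0.0544 in limma. Pnpla2 (mm9 chromosome 7, 148641097 to 148646642) was at 32.7, 33.2, 25.1 and 28.7 in the labelled libraries, against 15.6, 14.6, 16.3 and 22.1 in the controls, a smaller difference (log2 0.78, SE 0.18, adjusted p = 0.0937). Neither passed, although neither gene's groups overlapped. Lipe over Pnpla2 was 0.381, 0.331, 0.320 and 0.388 in labelled libraries 1 to 4 and 0.170, 0.127, 0.249 and 0.215 in the controls, a ratio formed after the values were seen and given without a test. Abhd5, the protein that switches on the PNPLA2 lipase, was at 6.89, 5.37, 5.87 and 5.05 in the labelled libraries and at 7.85, 5.06, 6.97 and 5.77 in the controls (log2 -0.12, adjusted p = 0.614). G0s2, the inhibitor of that lipase, was at 10.4, 5.38, 6.58 and 4.76 in the labelled libraries and at 2.48, 2.95, 2.42 and 4.53 in the controls (log2 0.90, adjusted p = 0.104). Mgll, the lipase that finishes the monoglyceride, had a log2 fold change of 0.13 (adjusted p = 0.735).

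Among the genes of fatty acid uptake, Cd36 (mm9 chromosome 5, 17287508 to 17394777) was at 33.5, 26.4, 22.1 and 23.3 rescaled FPKM in labelled libraries 1 to 4, against 8.97, 6.46, 7.39 and 10.7 in the controls. It rose by a log2 fold change of 1.55 (SE 0.20, limma adjusted p = 0.0268), the smallest p of the 8 members tested. CD36 is also made by macrophages and by the endothelium of capillaries. Lpl (mm9 chromosome 8, 71404390 to 71431347) was at 65.4, 41.1, 31.7 and 30.0 in the labelled libraries, against 18.6, 17.5, 16.5 and 18.5 in the controls. The 4 controls lay within 1.13 times of each other, yet the log2 fold change of 1.13 (SE 0.25) did not pass (adjusted p = 0.0885), and the highest labelled library was 2.18 times the lowest. Lpl is also made by islet beta cells, and labelled library 1, the highest in Lpl, had Ins2 at 4366, against 595 to 1180 in labelled libraries 2 to 4 and 445 to 1169 in the controls. The 6 islet markers, led by Ins2, summed to 5950, 1488, 942 and 761 in the labelled libraries and to 557 to 1472 in the controls. The part of the islets in the Lpl level was not tested. Gpihbp1, which carries lipoprotein lipase to the inner wall of capillaries, was at 1.88, 1.97, 1.73 and 5.51 in the labelled libraries and at 5.30, 3.06, 2.87 and 4.22 in the controls (log2 -0.44, adjusted p = 0.327). Lpl over Gpihbp1 was thus 34.8, 20.9, 18.3 and 5.44 in labelled libraries 1 to 4 and 3.51 to 5.75 in the controls.

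Over the 10 genes, 8 passed the minimum mean and 3 of these (Cidec, Plin4 and Cd36) were called by limma with p-values adjusted over all 11860 genes tested, where 0.413% of all genes were called and 0.219% of all genes were called higher. All 8 had an unadjusted p under 0.05, as did 30.1% of the genes tested. All 8 had groups that did not overlap, labelled libraries higher, as did 10.9% of the genes tested. For each of the 8 the exact two-sided permutation p was 0.0286, the smallest that 4 against 4 libraries can give. Their median log2 fold change was 1.68, against 0.10 for all genes tested. The members were chosen with results of these data known, so these counts describe them. The calls hung on single libraries: leaving out labelled library 1, 2, 3 or 4 left 0, 1, 0 and 8 members called, and leaving out control 1, 2, 3 or 4 left 0, 0, 0 and 2. Of all genes tested, 17, 97, 15 and 2566 were called without labelled library 1, 2, 3 or 4. Without control 1, 2, 3 or 4 the numbers were 26, 10, 10 and 26. The fit without labelled library 4 thus called 21.6% of all genes. With a minimum mean of 5, 5 members were called (0.736% of genes), and with implied fragments scaled to an equal sum 8 were (46.4% of genes).

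The adjusted p of Cidec was 0.139, 0.0569 and 0.134 without labelled library 1, 2 or 3 and 0.107, 0.0945 and 0.145 without control 1, 2 or 3. That of Plin4 was 0.139, 0.0619 and 0.152 without labelled library 1, 2 or 3 and 0.107, 0.170, 0.145 and 0.0588 without control 1, 2, 3 or 4. That of Cd36 was 0.0661 and 0.0706 without labelled library 1 or 3 and 0.0704, 0.122 and 0.123 without control 1, 2 or 3. The log2 fold changes moved little in these fits, between 1.70 and 2.17 for Cidec, 1.67 and 2.02 for Plin4 and 1.43 and 1.66 for Cd36. Among the BKD titles the log2 fold changes of Cidec, Plin4, Cd36 and Plin2 were 2.04, 2.21, 1.43 and 1.63, and among the ASK and BSH titles 2.02, 1.8, 1.61 and 1.61. Control 1 was the only control among the BKD titles, and labelled library 2 the only labelled library among the ASK and BSH titles. No member was called within either set of titles or with the prefix as a covariate. The direction of a member whose groups do not overlap is fixed in these subsets and says nothing about stability.

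**Figure D3:**
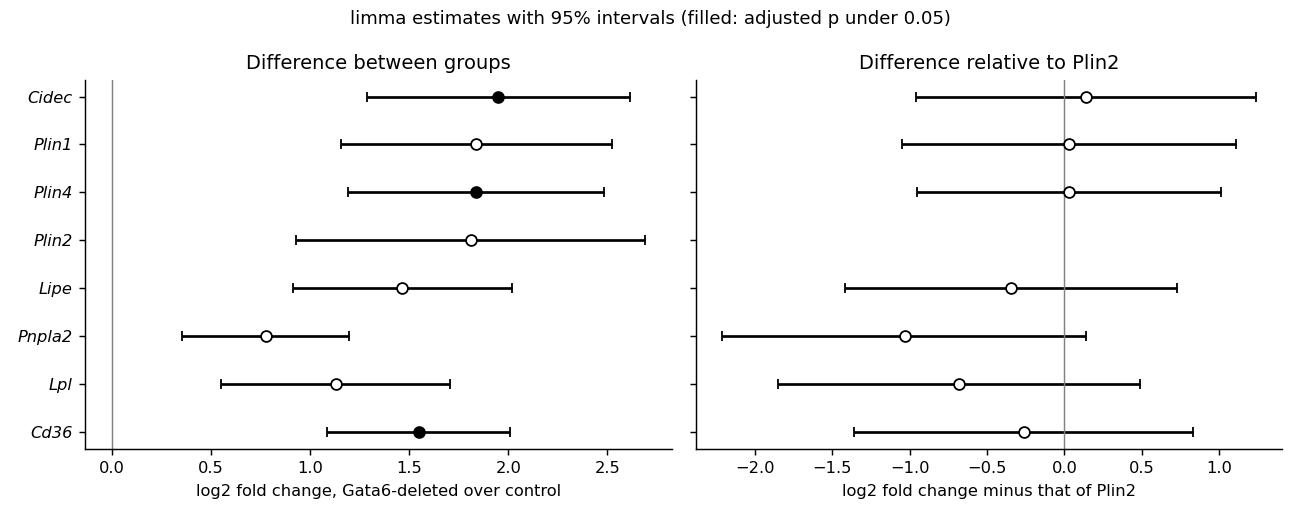
Left, log2 fold change of the 8 tested members, labelled Gata6-deleted over control, with 95% limma intervals and filled points for adjusted p under 0.05. Right, the same relative to Plin2 within each library, where all 7 intervals take in 0.

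Set against Plin2 in the same library, none of the other 7 tested members was called in limma, where 87.6% of all genes were called and 0.135% of all genes were called higher. For Cidec relative to Plin2 the log2 difference was 0.14 (95% interval -0.96 to 1.24, adjusted p = 0.800), for Plin1 it was 0.03 (-1.05 to 1.11, adjusted p = 0.958) and for Plin4 0.03 (-0.95 to 1.01, adjusted p = 0.956). These intervals reach 1 log2 unit either way and do not show that the coats moved alike. Pnpla2 relative to Plin2 had the largest difference, -1.03 (-2.21 to 0.14, adjusted p = 0.0895), with an exact permutation p of 0.0571 (two-sided, n = 4 each). Without labelled library 4 it was called in limma (log2 -1.35, adjusted p = 0.00963). The log2 fold changes before subtraction were then 2.15 for Plin2 and 0.79 for Pnpla2. How many of all genes that fit called is not given, so the call is not read as a result about Pnpla2. Plin2 over Plin1 ran 1.91, 1.97, 6.01 and 1.03 in labelled libraries 1 to 4 and 6.68, 3.79, 1.82 and 1.45 in controls 1 to 4. The ratio thus varied more than 4-fold inside each group, and labelled library 3 lay close to control 1, the control lowest in Plin1.

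Adipoq, which encodes the fat-cell hormone adiponectin, was taken as 1 marker of fat cells among the 10 white fat markers. It was at 56.1, 52.2, 31.2 and 29.5 in labelled libraries 1 to 4 and at 5.87, 5.37, 13.6 and 23.7 in controls 1 to 4, so the controls alone spanned 4.41-fold (log2 fold change between groups 1.89, adjusted p = 0.0959). Over the same 4 controls Plin1 spanned 3.47-fold, Cidec 3.40-fold, Plin4 2.86-fold and Lipe 2.57-fold, each lower in controls 1 and 2 than in controls 3 and 4. Cd36 spanned 1.65-fold, Pnpla2 1.52-fold, Plin2 1.44-fold and Lpl 1.13-fold there. Implied fragments per control were 8.12 to 87.4 for Cidec, 14 to 69 for Plin1 and 10.8 to 25.3 for Plin2. The deposited intervals of Cidec in control 1 (2.009 to 6.299) and control 3 (3.525 to 7.718) overlapped. Those of Plin2 and of Lpl overlapped among all 4 controls, so counting error covers their order there. Control 1, with little Adipoq, had the highest Plin2 and Lpl of the controls. With 4 controls no correlation is given. The white fat markers did not all order the labelled libraries as Adipoq did: 7 of the 10 were highest in labelled library 1, Trarg1 in labelled library 2 and Cfd and Retn in labelled library 4, where Adipoq was lowest. Relative to Adipoq within a library, none of the 8 tested members was called, where 78.4% of all genes were called and 0.245% of all genes were called higher. The log2 difference was 0.06 for Cidec (95% interval -1.30 to 1.42), -0.05 for Plin1, -0.05 for Plin4, -0.08 for Plin2 and -1.11 for Pnpla2 (-2.59 to 0.36), with adjusted p from 0.152 to 0.938.

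**Figure D4:**
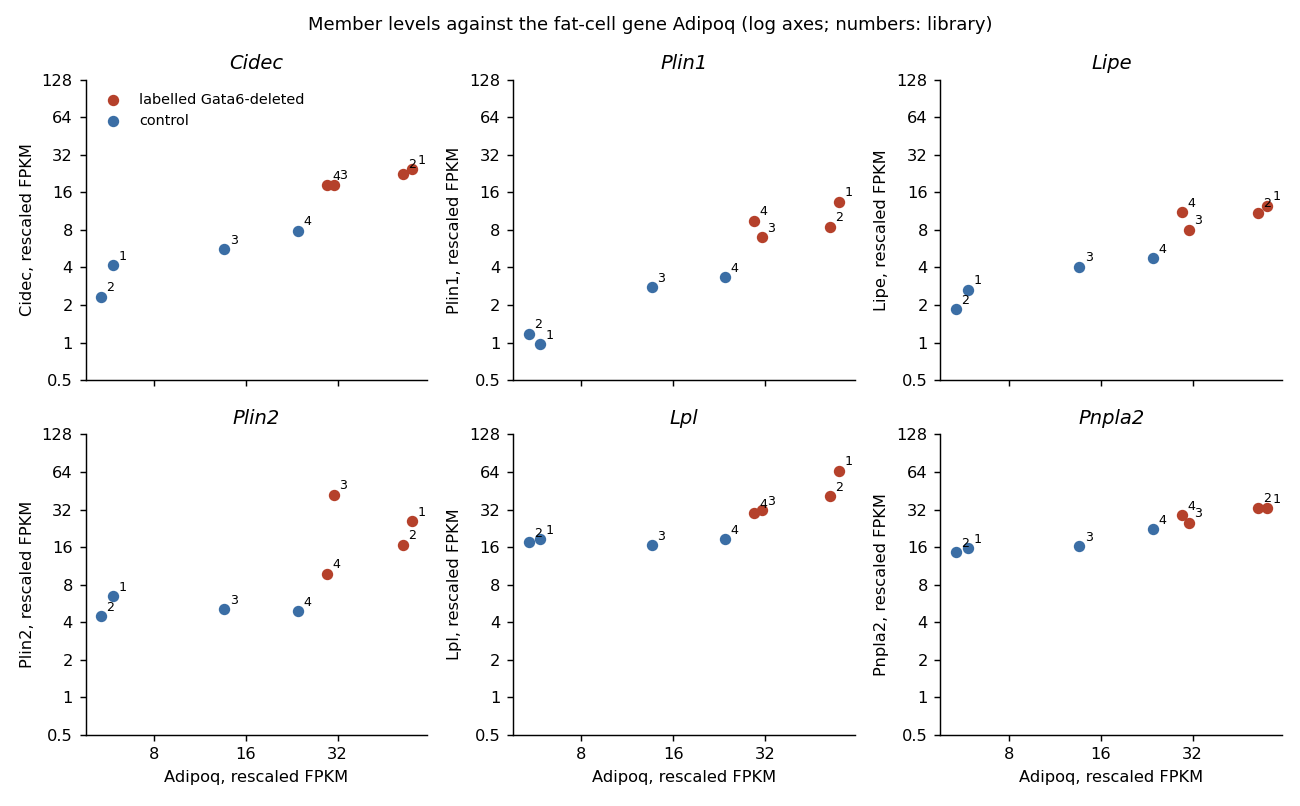
Rescaled FPKM of 6 members (vertical log axes) against that of Adipoq (horizontal log axis), 1 numbered point per library, for labelled Gata6-deleted libraries and controls. Across the controls Cidec and Lipe climb with Adipoq, and Plin1 is lower in controls 1 and 2 than in controls 3 and 4. Plin2 and Lpl span 1.44-fold and 1.13-fold there, with deposited intervals that overlap. Labelled library 3 sits apart in Plin2 at 42.1.

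Plin2 and the sums of macrophage and of fibroblast and stellate cell markers were higher in labelled libraries 1 and 3 than 2 and 4. The 10 macrophage markers, led by Lyz2, summed to 700.4, 221, 588 and 180 rescaled FPKM in labelled libraries 1 to 4 and to 86.3 to 138 in the controls, none of them at 0 in all libraries, and 0 of the 9 tested passed in limma (9 at an unadjusted p under 0.05). Cd68, a lysosomal protein of macrophages, was at 38.8, 10.5, 37.2 and 6.59 in the labelled libraries and at 7.80, 5.67, 3.82 and 4.96 in the controls. Trem2, a receptor of lipid-laden macrophages, was at 5.39, 1.99, 10.4 and 2.28 in the labelled libraries and at 1.36, 0.821, 1.27 and 0.694 in the controls, with labelled library 3 highest, as for Plin2; Trem2 was singled out after its values were seen. Of the 10 macrophage markers, 5 were highest in labelled library 3 and 5, Lyz2 and Cd68 among them, in labelled library 1. The 8 fibroblast and stellate cell markers, led by Dcn and Col3a1, summed to 636, 248, 962 and 274 in labelled libraries 1 to 4 and to 157 to 202 in the controls. All 8 were tested and 0 passed in limma (7 at an unadjusted p under 0.05). The 8 endothelial markers, led by Plvap, summed to 35.8 to 50.9 in the labelled libraries and to 39.8 to 49.7 in the controls. The 6 skeletal muscle markers, led by Mylpf, summed to 0.1004 to 1.64 in the labelled libraries and 0.0938 to 7.30 in the controls. The 10 white fat markers, led by Car3 and Fabp4, summed to 511 to 789 in the labelled libraries and to 99.5 to 291 in the controls. Of these, 0 of the 9 tested passed in limma (8 at an unadjusted p under 0.05). The part of these cell types in the level of any member was not tested.

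**Figure D5:**
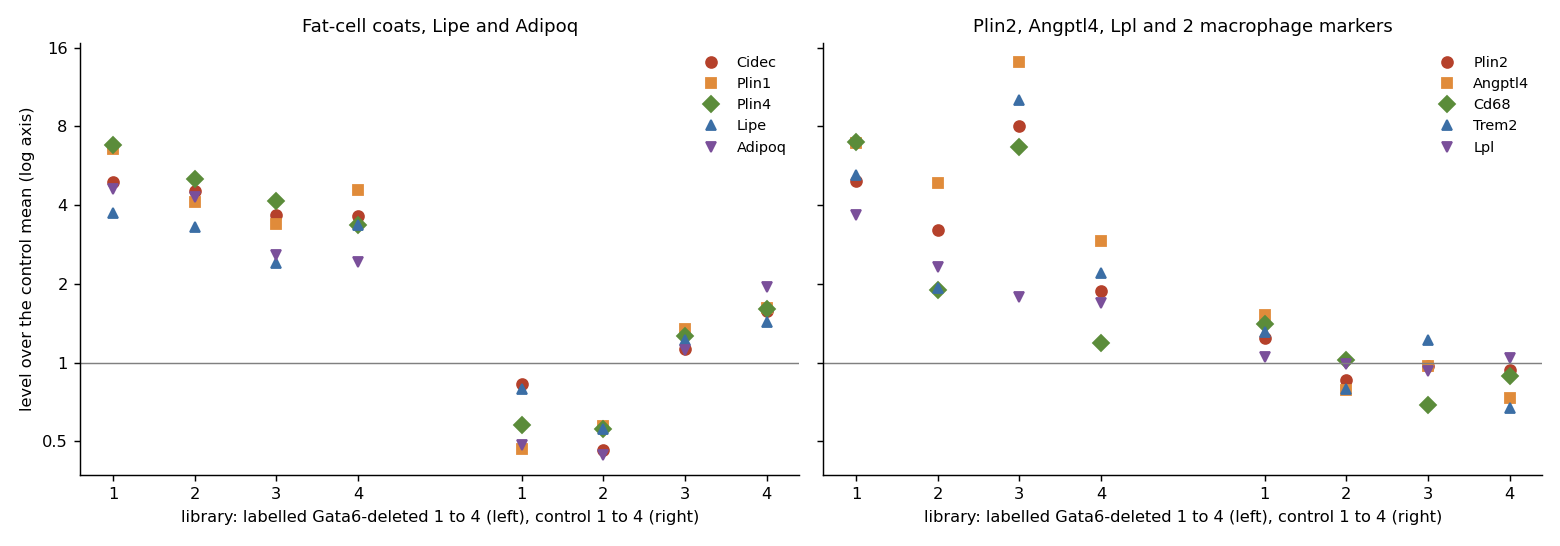
Level over the mean of the 4 controls (vertical log axis) in labelled Gata6-deleted libraries 1 to 4 and controls 1 to 4. The fat-cell genes at left are highest in labelled library 1, whereas at right Plin2, Angptl4 and Trem2 are highest in labelled library 3 and Cd68 and Lpl in labelled library 1.

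Among all genes tested other than members, those most like Plin1 over the 8 libraries were the white fat marker Car3 (Pearson's r = 0.992), Abcd2 (0.989), Slc36a2 (0.989), Tmem45b (0.985) and Mmd (0.985). Those most like Plin2 were Angptl4 (r = 0.996), Tmem132a (0.988), 1810009J06Rik (0.987), Nsfl1c (0.987) and Cdkn1a (0.986). Angptl4 encodes an inhibitor of lipoprotein lipase, and was at 3.97, 2.79, 8.04 and 1.67 in labelled libraries 1 to 4 and at 0.868, 0.448, 0.554 and 0.418 in the controls (log2 1.56, limma adjusted p = 0.0879). Its control mean of 0.57 was under the minimum of 1, so it reached the test and this list through the labelled libraries, where it is high. The control means of Tmem132a, Abcd2, Slc36a2 and Tmem45b were under that minimum too. Plin1 itself had an r of 0.983 with Lipe, 0.980 with Plin4, 0.967 with Cidec, 0.955 with Pnpla2, 0.944 with Cd36, 0.878 with Lpl and 0.746 with Plin2. Plin2 was closer to the other fat-cell coats than to Plin1, with an r of 0.831 with Plin4 and 0.81 with Cidec. Its r was 0.838 with Cd36, 0.81 with Lpl, 0.734 with Lipe and 0.715 with Pnpla2. All these r share the same 8 libraries and the distance between the groups, and are given as descriptions.

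Of 31 other genes of droplets, lipolysis and fatty acid uptake, 26 reached the minimum mean, 1 rose and 0 fell in limma. The median log2 fold change of the 26 was 0.12, against 0.10 for all genes, and 8 of them were higher and 2 lower without overlap, against 10.9% of all genes higher and 7.62% lower. The 1 that rose was Prkar2b, the regulatory subunit of protein kinase A that is abundant in fat, at 6.27, 4.03, 3.65 and 3.89 in the labelled libraries and 0.773, 0.544, 1.06 and 1.34 in the controls (log2 1.49, adjusted p = 0.0266). Its control mean of 0.93 was under the minimum of 1, so it reached the test through the labelled libraries, where it is high. Its adjusted p was 0.0524 and 0.0778 without labelled library 1 or 3 and 0.0711, 0.120 and 0.117 without control 1, 2 or 3. Fabp4, the fatty acid carrier of fat cells, was at 211, 204, 141 and 153 in the labelled libraries and 51.7, 37.3, 65.1 and 86.7 in the controls (log2 1.59, adjusted p = 0.0752). Hilpda, listed in the tables as 2310016C08Rik, a droplet protein that inhibits the PNPLA2 lipase, overlapped between the groups, at 1.59 to 4.43 in the labelled libraries and 2.08 to 4.78 in the controls (log2 -0.07, adjusted p = 0.886). Cideb, the CIDEC relative of liver and gut, was at 0.0932 to 0.363 in the labelled libraries and 0 to 0.148 in the controls and was not tested. Chosen after their values were seen, the lysosomal lipase gene Lipa was at 15.5, 4.62, 16.0 and 4.17 in the labelled libraries and 2.03 to 3.03 in the controls (log2 1.44, adjusted p = 0.106). The lipase-like Pnpla3, also chosen so and below the minimum, was at 1.62, 1.30, 0.501 and 0.704 in the labelled libraries and 0.0259 to 0.390 in the controls.

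The order of levels was Lpl, Pnpla2, Cd36, Plin2, Cidec, Lipe, Plin1, Plin4, Plin5 and Cidea by mean rescaled FPKM, in the labelled libraries and in the controls alike. In the labelled libraries the ranges of neighbours overlapped throughout except for Cidec (18.2 to 24.6) above Lipe (8.03 to 12.5) and Plin4 (6.41 to 13.0) above Plin5 (0.108 to 0.189). In the controls Pnpla2 (14.6 to 22.1) lay wholly above Cd36 (6.463 to 10.7), Cd36 narrowly above Plin2 (4.47 to 6.459) and Plin4 (1.07 to 3.06) above Plin5 (0 to 0.205), and the other neighbours overlapped, with Plin5 reaching the 0 of Cidea. Plin4, Lipe and Cidea each overlap another annotated entry (Hdgfrp2, 4732471J01Rik and B430212C06Rik), with which the counting could have split reads.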

How the data were processed

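Gene FPKM tables, 1 per mouse, were deposited by the authors with interval bounds and a status; the submitters' processing notes name Cufflinks 2.0.1, TopHat2 2.0.4, Bowtie and CASAVA 1.8, with mm9 and NCBIM37 as builds. Which gene models, strand setting and scaling were used is not given in the sources used here. The deposited FPKM, which sum to between 2.34e+10 and 1.86e+11 per library, were divided by 100000. IDs on more than 1 entry (14) were summed and 8 genes lacking an estimate in at least 1 library were left out. Genes with a mean of at least 1 were tested with limma 3.58.1 (R 4.3.3) on log2(rescaled FPKM + 1) with an intensity trend, two-sided, Benjamini-Hochberg adjusted over all genes at 0.05; this understates changes of low genes. The fits relative to Plin2 or Adipoq subtracted that gene's log2 value in each library, so its spread is shared by all genes. Single values had exact permutation tests (scipy 1.17.1). Implied fragments are 4 times the squared ratio of FPKM to the interval's half-width; they are no counts, and depth beyond them is unknown. Coordinates are the files' (mm9, counted from 1). Named genes are the members, Gata6, passing and preset pathway genes, leading markers and the 5 nearest to Plin1 and to Plin2. Outside that rule, Ucp1, Trem2, Cfd, Retn, Trarg1, Lipa and Pnpla3 were named after their values were seen, and Xist and Eif2s3y as a check of sex. Members and lists were chosen with earlier results of these data known. Each library is taken as 1 mouse from its title, and p-values measure only the spread between these samples, which may be technical. Pseudocount, filter, scaling, variance model, prefix and left-out libraries were varied.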

Additional observations from a re-analysis of the deposited data

Results flagged for a closer look

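Of 82 groups of 4 libraries checked, 3 held a library far from the others, and chance flags about 1 in 20. Plin2 over Adipoq was 1.35 in labelled library 3, against 0.460, 0.320 and 0.331 in labelled libraries 1, 2 and 4. Cd36 over Plin2 was 2.19 in control 4, against 1.39, 1.44 and 1.46 in controls 1 to 3. Lipe over Plin1 was 2.74 in control 1, against 1.57, 1.47 and 1.42 in controls 2 to 4, with 14 implied fragments behind Plin1 in control 1.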

How the results depend on the processing

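All 8 tested members were positive in each of the 22 other settings. Where only the libraries, pseudocount, filter or variance model changed, groups without overlap fix this sign. There it says nothing about stability. Cidec passed in 8 of the 22 settings, Plin4 in 5, Cd36 in 11, Plin1 in 4, Lipe in 3 and Plin2, Pnpla2 and Lpl in 2 each. All 8 tested members passed under implied fragments and without labelled library 4, where 46.4% and 21.6% of all genes were called. Plin2, Pnpla2 and Lpl passed in no other setting. Against 3 members called, 1 was called with no minimum or median-ratio scaling, 5 with a minimum mean of 5, 8 when implied fragments were scaled to an equal sum, and 0 under quantile scaling, an equal sum outside acinar enzyme genes, the prefix covariate, the BKD or the ASK and BSH titles, or without labelled libraries 1 and 3 (leaving out 1 library, 0 to 8). The scaling to implied fragments moved the median log2 fold change of all genes to 1.14 and median-ratio scaling to -0.04; the cause of these differences was not tested. Of all genes, 25 were called under an equal sum outside acinar enzymes, 5506 (5483 higher) under implied fragments, 5 with the prefix covariate, 16 among BKD titles, 91 among titles with ASK or BSH, and 13 when labelled libraries 1 and 3 were left out (leaving out 1 library, 10 to 2566). Of the other pathway genes, 17 were called under implied fragments and 0 with no minimum or one of 5, under quantile or equal-sum scaling, with the prefix covariate, among BKD titles and without labelled libraries 1 and 3 (leaving out 1 library, 0 to 10). Relative to Plin2 or to Adipoq, 2 members (Cidea and Plin5, both near 0) were called with no minimum. The subtraction gives a gene near 0 about minus the log2 fold change of the reference gene. Relative to Plin2 the log2 differences were -1.67 for Cidea and -1.72 for Plin5. Their own log2 fold changes were 0.14 and 0.09, against 1.81 for Plin2, so these calls do not show a change of Cidea or Plin5 themselves. Plin2 and Adipoq themselves were not called there in limma (adjusted p = 0.146 and 0.156), and the cause of that difference was not tested. Leaving out 1 library called 0 to 1 relative to Plin2 and 0 relative to Adipoq. In the subset of titles 1 group held a single library, assumed to vary like the others. No paired analysis was possible because replicate numbers were given in accession order.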
